A study of Mus musculus with 40 samples.

Results

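When Cas9 cuts a barcode array at separate target sites, the stretch between them can be lost and the outer ends joined, sometimes with new bases between them. Such joins with 1 to 3 added bases were taken here from the deposited list of edited arrays of 1 mouse liver library. A join was a deletion with inserted bases (written a_bdelinsX, with first deleted base a, last deleted base b and inserted string X) that overlapped the cut windows of 2 or more targets. Window i covers bases 19 to 25 for target 1 and lies 27 bases further on for each next target, up to target 10. Arrays with a single event were left out. The joins were thus selected on their listed end positions and number of inserted bases, so values of these are a description with no test. This gave 6382 short-insert joins among 42668 listed events (14.96%, 95% exact binomial interval 14.6 to 15.3%), in 5683 of the 12336 alleles with 2 or more events. An allele is a distinct edited array, and the 5683 alleles carried 10878 of the 32342 unique molecular identifiers (UMIs), each of which tags 1 array transcript.

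The series labels 40 liver pieces from 5 mice by lobe and by a mark of embryonic day, E10, E12 or E15.5. Files were used for a single piece, from the right inferior lobe of YK184 (E15.5). The other 39 samples were not analysed here, so nothing is compared between lobes, marks or animals, and there is no replicate. The labels give no genotype, age, sex or treatment, and do not state what the embryonic day refers to. Only array transcripts were measured, so liver markers could not be looked at. All intervals treat listed events or alleles as independent draws within this library and cover counting error only.

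DARLIN mice carry Cas9 linked to TdT, the template-independent DNA polymerase that lengthens free DNA ends during antigen receptor gene assembly. The array studied sits at the Col1a1 locus, whose gene lies on chromosome 11 from base 94936224 to base 94953042 (GRCm38.p6). Cas9 cuts before the last 3 bases of each target, which here places the cut of target 1 between bases 22 and 23. End joining can then seal ends of the same cut, or ends of separate cuts with loss of everything between. Bases added at a join mark it beyond its end points, and descendants of the cell inherit the mark.

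The bases beside each cut decide how a join can be written, so the cut windows are shown first. The list states the original base at 40 array positions through its 291 substitutions, and those bases are given here 5′ to 3′. The letter n stands for a base that no substitution states, and capitals mark the stated bases directly before and after the cut.

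site 1, bases 19 to 25: ncnACgn
site 2, bases 46 to 52: natACgn
site 3, bases 73 to 79: nnnACnn
site 4, bases 100 to 106: ncnnCtn
site 5, bases 127 to 133: nncGCtn
site 6, bases 154 to 160: ncnACtn
site 7, bases 181 to 187: nnnGCnn
site 8, bases 208 to 214: nncGCgn
site 9, bases 235 to 241: gacGAtn
site 10, bases 262 to 268: cagACna

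The base after the cut was C at 9 of the sites and A at site 9. The base before it was A at 5 sites, G at 4 and not stated at site 4. This sets which inserts can be listed. The first inserted base never equalled the array base at the first deleted position, in 0 of 5799 joins where that base was stated (up to 0.0517% at 3 counts). Likewise the last inserted base equalled the base at the last deleted position in 0 of 5346 joins (up to 0.0561%). At site 4, joins ending at the cut had an insert ending in G in 83, T in 26, C in 4 and A in 0 of 113 cases. An insert whose outer base equals the deleted array base at that end is therefore listed as a shorter deletion. A base that repeats the kept base on the other side of the insert can still be listed.

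Over all joins, a single added base was the commonest form. One base was added in 3508 joins (55.0%, 53.7 to 56.2%), 2 bases in 1918 (30.1%) and 3 bases in 956 (14.98%). With each distinct join (junction and insert) counted once, 35.9% had 1 base. Just outside the limit, 532 joins had 4 added bases and 392 had 5. At the limit on windows, 81 of the joins reached an outer window by 1 base, and 9 other short-insert deletions missed another window by 1 base. The number of added bases moved with the placement of the ends. Joins with both ends directly at a cut had 1, 2 and 3 bases in 55.3%, 37.7% and 6.999%, close to the 54.4%, 37.1% and 8.58% of the 14888 separate insertions of 1 to 3 bases in alleles with several events. Joins with an end elsewhere had 3 bases in 24.6% (23.03 to 26.2%). Listed length and placement are tied by the notation. An outer added base equal to the deleted base at that end shortens the listed insert and moves the listed end. Separate insertions are not limited to the same strings, so the nearness of their lengths to those of joins at both cuts was not tested.

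A and G prevailed among the added bases. Over all 10212 inserted bases, G made up 39.5%, A 32.6%, T 17.8% and C 10.05%, so that 72.1% were A or G (71.3 to 73.0%). In separate insertions of 1 to 3 bases the A or G share was 81.1% (80.6 to 81.6%), in deletions within 1 window with 1 to 3 added bases it was 56.6% (54.4 to 58.7%), and in joins with over 3 added bases it was 46.7% (46.1 to 47.3%). These differences were not tested, since all come from 1 library. The sets also differ in which bases can be listed, so their shares are not directly comparable. At cuts with A before them, separate 1-base insertions had A in 2035 and G in 2173 cases. Cut-to-cut joins of 1 base ending at such cuts had A in 0 cases. The joins used 76 of the 84 possible strings of 1 to 3 bases. The 10 commonest, counted in joins, were G (1401), A (1240), T (773), GG (369), AG (310), GA (273), AA (164), AT (146), GT (132) and, level at 94 each, C and GCG. The notation cannot list a single C at joins that start at the cut of sites 1 to 8, where C follows the cut. In 3-base inserts C made up 20.6% of the bases (19.2 to 22.2%), mostly away from the cuts. The commonest of these strings, GCG (94 joins), ACG (89) and TAC (77), had both ends at a cut in 4, 1 and 5 joins. Over inserts of all lengths C was 3.89% of the bases in joins at both cuts and 16.7% in the others.

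Which purine was listed followed the array base at the right-hand cut. Among 1-base joins with both ends at a cut, those ending at a site with A before the cut had G in 760, T in 266, C in 4 and A in 0 cases. Those ending at a site with G before the cut had A in 601, T in 234, and C and G in 0 cases. The absence of the letter that stands before the cut follows from the notation. By right-hand site the share of T ran from 24.1% at site 2 (21 of 87, 15.6 to 34.5%) to 30.7% at site 7 (55 of 179, 24.1 to 38.0%), and the intervals of all 9 right-hand sites overlapped. By left-hand site it varied more, from 31.9% at site 2 (90 of 282, 26.5 to 37.7%) to 16.4% at site 7 (21 of 128, 10.5 to 24.0%) and 1 of 15 joins at site 9. Of the G and T joins at sites with A before the cut, 25.9% had T (23.3 to 28.7%), and of separate 1-base insertions of G or T at the cuts of such sites 27.7% had T (26.1 to 29.4%). For A and T at sites with G before the cut these shares were 28.0% (234 of 835) and 31.0% (27.2 to 35.1%). Joins and separate insertions thus had overlapping T shares at sites with A before the cut, where G and T are open to both. The sites were not matched, since site 1 has A before its cut but cannot be a right-hand site. Site 10 held 580 of the 1030 joins. Separate insertions at cuts with A before them had C, the base after the cut, in 0 cases. At site 9 A follows the cut, while joins ending there had A in 156 and T in 58 cases. The letters are therefore not matched for the sites with G before the cut, and those 2 shares cannot be compared directly.

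A second reading counted bases kept beside the cut as added. Where an end stopped up to 3 bases short of its cut, the array bases left there were read as added bases, provided substitutions state them. This reading was chosen after the data were seen, and it could be applied to 10105 joins, clean ones included. A retained base and an added base of the same letter give the same sequence and cannot be told apart. Under this reading 7144 joins (70.7%, 69.8 to 71.6%) had 1 to 3 added bases, 2420 had none and 541 had more. Of the 7144, 2510 (35.1%) are listed as clean deletions. The added bases were then 44.8% G, 35.2% A, 11.1% T and 8.91% C. Separate insertions of 1 to 3 bases had 44.2% G, 36.9% A, 10.7% T and 8.20% C. The shares under the second reading include retained array bases by construction, and each stated base before a cut is A or G. In 1722 clean joins only the right end lay 1 base short, and each of these adds such an A or G. In 533 other clean joins only the left end lay 1 base short. Each of those adds the base after the cut, which is C except at site 9. Nearness to the separate insertions is therefore partly set by the reading, and it was not tested. At sites with A before the right-hand cut, 1-base additions were A in 38.3%, G in 36.3%, and C and T in 12.7% each of 2095 joins. At sites with G before it they were G in 46.8%, A in 29.9%, T in 11.7% and C in 11.6% of 2007 joins. In both sets the base equal to the array base was the commonest letter, though in the first the intervals of A (36.2 to 40.5%) and G (34.2 to 38.4%) overlapped. All such additions are listed as clean joins with an end 1 base short of its cut. C additions numbered 266 in the first set and 233 in the second, and only 4 and 0 of them were listed as inserts. The other C additions are array bases read as added.

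Many short-insert joins ran exactly from cut to cut. The left end lay directly at a cut in 84.9% of joins (84.0 to 85.8%), the right end in 59.1% (57.8 to 60.3%) and both ends in 54.6% (53.4 to 55.8%). With each distinct join counted once, both ends were at a cut in 26.2%. In clean joins of alleles with several events the left end, the right end and both ends lay at a cut in 66.9%, 35.2% and 24.4%. Both ends were within 3 bases of a cut in 88.5% of short-insert and 73.5% of clean joins. The right end differed from the left mainly by stopping 1 base short of the cut, in 1200 short-insert joins (18.8%), against 169 (2.65%) whose left end started 1 base late. A right end 3 bases past the cut, the end of the target, was listed in 0.971% of short-insert joins and in 13.3% of clean joins (12.6 to 13.9%). Placement also differed by number of added bases: both ends were at a cut in 54.9% of joins with 1 base, 68.6% with 2 and 25.5% with 3. The shares at a cut depend on the notation described above, since an outer added base equal to the deleted base at that end moves the listed end.

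How exactly the ends lay at a cut differed between sites. Short-insert joins starting at site 1 began at the cut in 90.5% (89.3 to 91.6%, 2650 joins), and those starting at site 5 in 59.3% (51.7 to 66.6%, 177 joins), with 49.1% for the 55 joins starting at site 9. Clean joins had the opposite order for sites 1 and 5, with 64.4% at site 1 and 80.8% at site 5. On the right, short-insert joins ended at the cut in 73.6% at site 3 and 71.5% at site 10, but in 41.2% at site 4 and 38.5% at site 9. Clean joins ended at the cut in 18.6% at site 3 and 38.4% at site 10, and in 45.6% at site 9.

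All 45 pairs of sites were joined with 1 to 3 added bases in at least 1 allele. The pairs with the most such joins were sites 1 and 3 (502 joins, 7.87%), 1 and 8 (492), 3 and 10 (490), 1 and 9 (375) and 1 and 7 (325). In the first of these pairs 284 joins had 1, 181 had 2 and 37 had 3 added bases. Sites 1 and 9 had 182, 119 and 74. Joins left from site 1 in 41.5% of cases and ended at site 10 in 25.8%, while 67.2% reached site 1 or site 10 (66.1 to 68.4%), against 59.0% of clean joins (58.0 to 59.95%). Sites 1 and 10 were joined to each other in 8 cases. That loss forms an allele with a single event, left out here, unless another edit lies outside it. How many joins of this pair were left out was not counted. The deletions removed 22 to 243 bases, with a median of 133.5 (quartiles 54 and 188), and the median of clean joins was 111.

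How often a join carried added bases differed widely between site pairs. Over all pairs, short-insert joins were 39.1% of short-insert plus clean joins (38.4 to 39.9%). Among the 44 pairs with at least 50 such joins, the share was lowest for sites 5 and 8, at 11.8% (10 of 85, 5.79 to 20.6%), and highest for sites 3 and 5, at 62.3% (134 of 215, 55.5 to 68.8%). Of those 134 joins, 25 were the same join away from the cuts, 64_150delinsCCA. By left site the share ran from 17.8% at site 5 (15.49 to 20.3%) to 46.4% at site 1 (45.1 to 47.7%), with 45.1% at site 3 and 18.97% at site 9. By right site it ran from 32.0% at site 9 (30.4 to 33.5%) to 52.6% at site 2 (48.2 to 57.0%). By distance, joins between neighbouring sites had 37.7% and those 2 sites apart 40.8%. At 3, 4, 5, 6, 7 and 8 sites apart the shares were 34.2%, 34.3%, 34.8%, 39.2%, 44.2% and 45.2%, in rising order, and the 19 joins 9 sites apart had 42.1%.

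The contrast between pairs was larger in the joins that could be read with retained bases as added. The set is not the same as above. It leaves out joins with an end past a cut, over 3 bases short of it or beside unstated bases, and its totals include joins with over 3 added bases. How much of the change came from the set was not tested. Sites 3 and 10 then had 8 joins with no added base and 585 with 1 to 3 (92.3% of all joins that could be read, 89.9 to 94.2%). Sites 1 and 3 had 9 and 589, sites 1 and 8 had 11 and 609, and sites 1 and 7 had 7 and 409. Sites 1 and 9 had 77 and 341. Pairs named after their values were seen lay far below: sites 7 and 9 had 291 joins with no added base and 140 with 1 to 3 (32.0%, 27.7 to 36.6%), and sites 5 and 10 had 239 and 93 (26.9%, 22.3 to 31.9%). Sites 5 and 8 had 48 and 6. By left site the share under this reading was again lowest at site 5 (27.04%, 23.8 to 30.5%) and was 84.7% at site 1 and 85.1% at site 3. A join of exact cut ends without any added base was thus common at some pairs and near absent at others.

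A given junction, meaning the same first and last deleted base, often carried different inserts. The 6382 joins fell on 877 junctions and formed 1850 distinct joins of junction and insert. Of the junctions, 550 were listed once. Among the 327 listed 2 or more times, 247 carried 2 or more inserts (75.5%, 70.5 to 80.1%). These are 28.2% of all junctions (25.2 to 31.3%) and hold 85.7% of the joins. With 10 or more inserts there were 34 junctions, holding 56.8% of the joins. All 45 junctions that run exactly from cut to cut were found, and 44 of them carried several inserts. The exception, 131_211 between sites 5 and 8, had A in its 3 joins. Other junctions carried several inserts in 203 of 832 cases (24.4%). A junction could only show several inserts if it was listed more than once, so these shares move with the number of joins per junction.

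The junctions with the most different inserts ran from cut to cut. Junction 77_265, from site 3 to site 10, had 25 inserts in 333 joins, of the 47 strings of 1 to 3 bases that differ from the array base at each end. Its commonest forms are shown as the 4 array bases before the join, the insert in capitals and the 3 array bases after it, because they show a fixed junction that differs in the insert alone.

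77_265delinsG, 108 joins: nnnaGcna
77_265delinsAG, 57 joins: nnnaAGcna
77_265delinsGG, 56 joins: nnnaGGcna
77_265delinsT, 35 joins: nnnaTcna
77_265delinsAT, 14 joins: nnnaATcna
77_265delinsAC, 11 joins: nnnaACcna

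Junction 23_211, from site 1 to site 8, where G stands before the right-hand cut, had 24 inserts in 303 joins.

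23_211delinsA, 104 joins: ncnaAcgn
23_211delinsT, 48 joins: ncnaTcgn
23_211delinsGA, 39 joins: ncnaGAcgn
23_211delinsAA, 28 joins: ncnaAAcgn
23_211delinsGT, 14 joins: ncnaGTcgn
23_211delinsGC, 10 joins: ncnaGCcgn

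The final base of these inserts was G, T or C at the first junction and A, T or C at the second, in each case not the array base before the right-hand cut. Next came 23_238 with 22 inserts in 139 joins, 50_265 with 20 in 147 and 23_76 with 19 in 372. The clean form of the same junction was listed 8 times for 77_265, 11 times for 23_211, 77 times for 23_238, 8 times for 50_265 and 9 times for 23_76. In 2-base inserts at cut-to-cut joins the first base was G in 48.5%, A in 44.6% and T in 6.87% of 771 joins where A stands before the right-hand cut. The shares were 46.8%, 39.3% and 13.9% of 504 joins where G does. C was the first base in 0 joins of either set. At joins that start at the cut of sites 1 to 8, the notation cannot list C first.

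Alleles that were alike in every other event also differed by the insert alone. There were 356 groups of alleles with the same junction and the same other events but different inserts, 1025 alleles in all, of which 46.4% had 1 UMI. The largest group had GC, GG, GGG, TT and 8 further inserts at 50_265 beside an A inserted at the cut of site 1. Its abundant forms had 23, 19, 14, 9 and 5 UMIs.

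50_265delinsG, 23 UMIs: nataGcna
50_265delinsT, 19 UMIs: nataTcna
50_265delinsAC, 14 UMIs: nataACcna
50_265delinsGG, 9 UMIs: nataGGcna
50_265delinsAG, 5 UMIs: nataAGcna

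TG had 3 UMIs, AT and TAG had 2 each, and AAG, GC, GGG and TT had 1 each. The inserts thus separated 12 alleles that would be a single allele by deletion ends alone. Whether errors in reading the inserted bases contributed to the forms with 1 UMI was not tested.

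The same join also recurred beside different other edits. Of the 1850 distinct joins, 1234 were in a single allele (66.7%, 64.5 to 68.8%), while 131 were in 10 or more alleles and made up 53.9% of all short-insert joins. The 5 joins in the most alleles were 23_76delinsG (144 alleles, 257 UMIs), 77_265delinsG (108 alleles, 292 UMIs), 23_211delinsA (104 alleles, 215 UMIs), 212_265delinsG (96 alleles, 210 UMIs) and 23_49delinsG (66 alleles, 132 UMIs). Each is a cut-to-cut join with 1 added purine. An identical join in alleles with other differing events can come from separate cells or from a shared ancestor edited further, and these lists do not tell the cases apart.

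Away from the cuts, some junctions carried the same 3-base insert in every allele. The 5 junctions with 10 or more joins and only 1 insert, of 91 junctions with 10 or more, all had 3 added bases and had ends that were not both at a cut. They were named after their values were seen: 181_239delinsTAC (57 alleles, 125 UMIs), 208_239delinsTCG (27 alleles), 64_150delinsCCA (25 alleles), 195_236delinsCAT (18 alleles) and 106_152delinsGTA (16 alleles). The clean form of 181_239 was listed 4 times and that of 208_239 was not listed. C was the middle base in 35.9% of all 3-base inserts (32.8 to 39.0%) and in 8.61% of those at both cuts (5.41 to 12.9%).

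Inserts ending in CG sat mainly at a fixed offset. Of 301 such inserts, 202 were in the 373 joins that ended 2 bases past the right-hand cut (54.2%, 48.9 to 59.3%), and 99 were among the 6009 other joins (1.65%). They were found there at site 4 in 55 of 72 joins, at site 5 in 25 of 32, at site 6 in 17 of 29 and at site 9 in 105 of 146. None was listed at sites 2, 3, 7, 8 and 10. At sites 2 and 8 the array itself has CG after the cut, so the notation cannot list such an insert there, and at sites 3, 7 and 10 the base in question is not stated. The stated array bases after the cut are CG at sites 1, 2 and 8, CT at sites 4, 5 and 6, and AT at site 9. Joins with CG in place of CT or AT were thus listed as reaching 2 bases past the cut. The commonest of these were 212_240delinsACG (18 alleles), 23_240delinsGCG (15 alleles) and 23_240delinsACG (13 alleles).

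Most alleles with a short-insert join were rare in molecules. One UMI was listed for 65.1% of the 5683 alleles (63.9 to 66.3%), and 6.25% had 5 or more. In the 5776 alleles with clean joins and no short-insert join, 62.2% had 1 UMI (60.9 to 63.4%), and the mean was 2.37 UMIs against 1.91. By number of added bases the means were 1.90, 1.89 and 1.98 UMIs for alleles with 1, 2 and 3, with a median of 1 in each. The 5 most abundant alleles were 23_240delinsACG with C inserted after base 266 (96 UMIs), G inserted at the cut of site 1 with 50_265delinsG (59 UMIs), 24_62del with 77_263delinsG (55 UMIs), 23_49delinsAG with 77_264delinsGGA (42 UMIs), and 19_234del with 237_270delinsGGA (38 UMIs). The first of these held 0.297% of all UMIs (0.240 to 0.362%).

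By the rule, each join was accompanied by at least 1 other event. Alleles with a short-insert join had a median of 3 events and up to 9, and 677 of them (11.9%, 11.1 to 12.8%) held 2 to 4 such joins. A separate insertion was present in 75.6% (74.5 to 76.7%) and a clean join in 39.8%. Where site 1 lay outside all joins, it had an insertion exactly at its cut in 70.9% of 2424 alleles (69.1 to 72.7%) and an untouched window in 2.35%. For alleles with clean joins and no short-insert join, of which 12.4% also hold a join with over 3 added bases, these shares were 64.5% (62.7 to 66.2%) and 3.51% of 2967. Site 10 outside all joins had an insertion at its cut in 73.4% of 3030 alleles (71.8 to 74.97%), and in 70.1% of 3471 alleles of the latter kind (68.6 to 71.6%).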

How the data were processed

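RNA of the liver lobe was reverse transcribed with an array-specific UMI primer and the Col1a1 array amplified by nested PCR, per the labels' protocols. The build mm10 comes from the submitters' processing notes. Allele caller, settings and filters: not given in the sources used here. As deposited by the authors, 2 lists without header hold the edits of each of 12767 alleles, and their 12-base UMIs, which were counted. No read numbers are listed, so precision rests on the counts of alleles and UMIs.

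The layout of 10 targets of 20 bases in units of 27 comes from general knowledge of the array. Its full sequence was not used here: array bases are those stated by listed substitutions. An end offset is the distance of the first or last deleted base from the cut of the outermost window. Shares have exact binomial (Clopper-Pearson) 95% intervals. No test was made, since the joins were chosen on these values and 1 library gives no groups. Joins, lists and alternatives were chosen with earlier results of these data known. Named items follow a rule: the 10 commonest strings, the 5 commonest site pairs, the 5 junctions with the most inserts, the 5 joins in the most alleles, the 5 largest alleles and the extreme site pairs with at least 50 joins. Exceptions are stated. The UMI minimum, single-event alleles, weighting, window, insert length, placement, folding of similar alleles and long inserts were varied. In 2000 simulated alleles written in the list's notation, 100% of the short-insert joins in alleles with several events were read back. This checks only that the notation was read as written, since the same window and cut positions were used to make and to read them. Python 3.11.15 and scipy 1.17.1 were used.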

Additional observations from a re-analysis of the deposited data

How the results depend on the processing

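Over 13 alternatives, 37 of 88 values for 7 results lay within the interval of the reported value (for the number of joins, within 1.5 times) and 51 did not. Minimums of 2, 3 and 5 UMIs per allele left 2204, 1038 and 393 joins, with 74.4%, 78.9% and 83.0% reaching site 1 or 10 and 37.7%, 35.0% and 32.3% of joins with added bases; both ends were at the cut in 55.9% at 2 and 57.5% at 5 UMIs, where A or G made up 74.8%. Weighting by UMIs gave 12110 joins, 73.1% A or G, 73.4% reaching an outer site and 35.9% with added bases. Counting each of 1850 distinct joins once gave 35.9% with 1 base, 63.3% A or G, 26.2% with both ends at the cut, 56.8% reaching an outer site and 53.3% with added bases. Limits of 2 and 5 inserted bases gave 64.7% and 48.0% with 1 base, 75.7% and 68.4% A or G, 59.7% and 49.5% with both ends at the cut, 69.9% and 64.9% reaching an outer site, and 35.3% and 42.4% with added bases. With both ends within 3 bases of a cut these were 57.5%, 76.5%, 61.8%, 70.2% and 43.6%, and 47.2% of junctions had several inserts. The whole target as window gave 53.3% with both ends at the cut. Alleles differing by 1 inserted base were folded only into an allele with more UMIs, so pairs with equal UMIs were not folded together. Folding 1856 alleles in this way gave 71.1% A or G, 52.2% with both ends at the cut, 63.1% reaching an outer site and 38.1% with added bases. Without alleles holding an insert of 10 or more bases the first 3 of these were 73.6%, 56.3% and 68.7%. Reading retained bases as added, chosen after seeing the data, gave 58.5% with 1 base, 80.0% A or G, 70.3% reaching an outer site and 74.7% with added bases; all junctions then had several inserts (100%), since every end is set to a cut. Under that reading the A or G share also counts, by construction, the A or G retained before right-hand cuts. The cause of the other changes was not tested. No paired analysis was possible because files of 1 sample were analysed.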

Other observations

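The same kind of join was also listed in alleles with a single event, which were left out above. There were 195 of these with 2272 UMIs and a median of 2 UMIs. Of the 195, 45 had a join (junction and insert) that also occurred beside other events (23.1%, 95% exact interval 17.4 to 29.6%). Of their 74 junctions, 28 were shared.

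Deleted lengths that are a multiple of the 27-base unit made up 55.3% of short-insert joins (54.1 to 56.6%) and 25.3% of clean joins (24.4 to 26.2%). Joins with both ends at a cut have such a length by construction and were 54.6% and 24.4%. These lengths thus largely restate the placement of the ends and depend on the notation in the same way. An insert of 10 or more bases was present elsewhere in 5.14% of the alleles with a short-insert join (292 of 5683).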
